A study of Homo sapiens with 8 samples.

Results

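The genes described here make sterols and fatty acids or steer their synthesis, and were read on 8 Affymetrix arrays of HEK293T cells, a human embryonic kidney line carrying the SV40 large T antigen. They were taken from a list of 31 gene symbols. A symbol was matched to the transcript clusters of the array by the platform annotation, and where it had several the one with the highest mean over the 8 arrays was used. In this way 27 of the 31 genes had a transcript cluster, out of 14884 named genes and 53617 transcript clusters with values. All 27 passed the filter on low signal, which kept 28946 clusters. FDFT1, LSS, CYP51A1 and SC5D carried no named cluster and were not analysed here.

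Each array held RNA of 1 sample. Cells given shRNA against TET1 through a lentivirus were read as 2 clones, shTET1#1 and shTET1#2, and compared with 1 clone that carried a control shRNA. Cells given a TET1 plasmid were read as the pair TET1-CD and mTET1-CD and the pair TET1-FL and mTET1-FL, in which m marks the catalytically mutant protein, and compared with 1 array of cells given empty vector. These 5 transfected samples were sorted by fluorescence 3 days after transfection, whereas no sort is stated for the clones. No label names replicate cultures, so p-values measure only the spread between these samples, and each clone line stands for a single clone. Within each cluster, the spread behind standard errors (SE) and p-values came from 2 sources. They were the gap between the TET1 shRNA clones and the mismatch of the wild-type effect in CD and in FL. The single control and vector arrays added nothing to that spread. The fit then drew each cluster's spread toward a prior value shared over all clusters. TET1 itself, in cluster 16705381, stood at 8.62 in shTET1#1 and 9.14 in shTET1#2, against 9.29 in the control clone. Cluster 16715048 stood at 5.27 and 6.20 against 5.71. These values are near the array medians of 5.47 to 5.55, so a loss of TET1 is hard to read from this cluster. Because the second clone showed little or no lower TET1 signal, it is called the array labelled shTET1#2. With the plasmids the 2 clusters stood at 10.42 to 12.47 and at 11.80 to 12.10, against 9.51 and 5.86 with the vector. All values are log2, and differences are log2 differences unless given as a fold.

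Cholesterol is built from acetyl-CoA by way of mevalonate, farnesyl diphosphate and squalene. Its genes are switched on together by sterol regulatory element binding proteins (SREBPs), membrane-bound transcription factors that SCAP escorts out of the endoplasmic reticulum when sterols are scarce and that INSIG proteins hold back when sterols are plentiful. INSIG1 is itself an SREBP target, so its message is a common readout of the pathway, and SREBP-1 is best known for driving fatty acid genes while SREBP-2 favours sterol genes.

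Promoter sequence was available for 24 of the 27 genes. The RefSeq windows of build GRCh38.p14 hold 250 bases before each gene's start. Shown are 4, picked from the genes with their highest value with the vector and their lowest transfected values with the CD plasmids. IDI1 and STARD4 met the same conditions, and their windows are not printed. Capitals mark letters matching a searched motif on either strand, namely the sterol response element core TCACNCCAC, the NF-Y box CCAAT, the Sp1 box GGGCGG and the E-box CACGTG. HMGCS1 has 2 windows, of which the first listed is printed.
INSIG1, chr7:155297628-155297877, plus strand: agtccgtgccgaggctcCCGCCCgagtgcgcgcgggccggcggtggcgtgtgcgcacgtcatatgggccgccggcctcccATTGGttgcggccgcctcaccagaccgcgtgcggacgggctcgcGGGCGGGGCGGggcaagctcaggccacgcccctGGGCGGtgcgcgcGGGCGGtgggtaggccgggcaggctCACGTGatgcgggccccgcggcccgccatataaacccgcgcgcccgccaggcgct
HMGCS1, chr5:43313413-43313662, minus strand: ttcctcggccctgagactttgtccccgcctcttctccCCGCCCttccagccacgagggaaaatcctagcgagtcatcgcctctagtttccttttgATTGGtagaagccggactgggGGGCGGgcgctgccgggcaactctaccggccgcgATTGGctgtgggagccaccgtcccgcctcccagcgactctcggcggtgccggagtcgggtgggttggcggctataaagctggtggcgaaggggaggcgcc
MSMO1, chr4:165327419-165327668, plus strand: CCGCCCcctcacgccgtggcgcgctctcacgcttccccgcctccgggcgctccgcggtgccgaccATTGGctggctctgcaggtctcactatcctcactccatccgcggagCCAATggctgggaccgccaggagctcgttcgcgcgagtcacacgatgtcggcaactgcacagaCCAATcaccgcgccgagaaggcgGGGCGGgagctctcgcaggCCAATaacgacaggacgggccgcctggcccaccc
SREBF2, chr22:41832855-41833104, plus strand: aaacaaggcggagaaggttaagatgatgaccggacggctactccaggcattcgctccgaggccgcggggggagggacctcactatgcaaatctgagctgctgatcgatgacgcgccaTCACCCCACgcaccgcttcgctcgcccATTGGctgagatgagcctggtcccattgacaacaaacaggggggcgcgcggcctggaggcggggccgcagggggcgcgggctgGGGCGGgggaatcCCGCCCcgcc

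The NF-Y box was found in 17 of the 24 genes (70.8%), in any of their windows. Counted the same way, it was found in 40.4% of 8288 named genes kept on the arrays and 37.0% of all 27305 genes. The Sp1 box was found in 23 of 24 genes (95.8%), against 72.9% of kept genes and 46.2% of all genes. Overlapping matches were each counted. MSMO1 held 4 NF-Y boxes in the window shown, HMGCS1 held 2, and INSIG1 and SREBF2 held 1 each. INSIG1 held 5 Sp1 boxes, 2 of which overlap. MVK and NSDHL, whose windows are not printed, held 5 NF-Y boxes each, and TM7SF2 held 1. Those 3 genes had lower values with the vector than with any plasmid, and their highest transfected values with the CD plasmids. Whether box number goes with either order was not tested. The sterol response element core, in these letters, was found in SREBF2 alone (4.17% of the members, against 1.1% of kept genes), beginning 133 bases before the start. The E-box was found in INSIG1 and SCAP (8.33% against 11.1% of kept genes). Such matches describe the letters of these windows and show no binding.

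**Figure D1:**
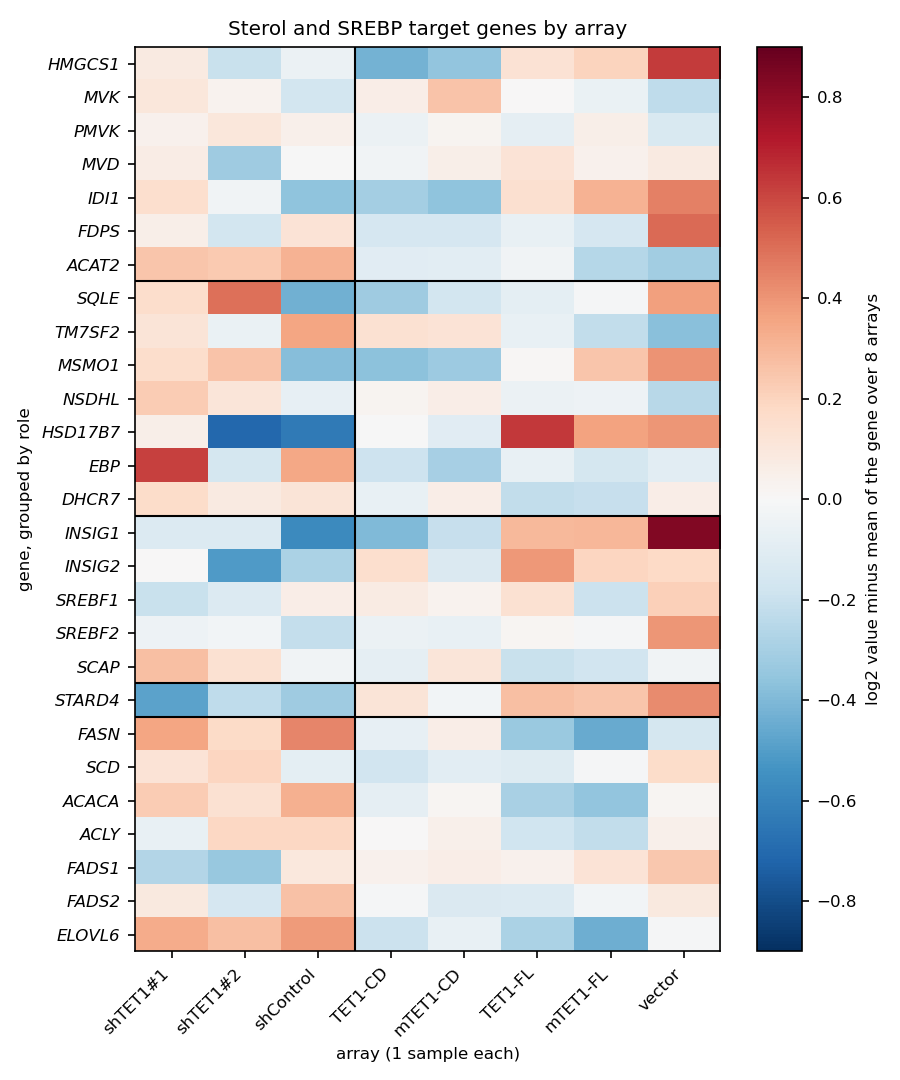
Heat map of the 27 genes (rows, grouped from top to bottom as early mevalonate and isoprenoid enzymes, squalene and later sterol enzymes, SREBP factors and regulators, sterol transport, and fatty acid enzymes) on the 8 arrays (columns, 1 sample each). Colour gives the log2 value minus the gene's mean over the 8 arrays, red above and blue below, and the vertical line parts the clones from the transfected cells; INSIG1 has the deepest red, in the vector array, at 10.82.

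Supplying TET1, wild-type or mutant, was set against empty vector to ask what the protein changes. Most members had lower values with the plasmids, short of the threshold. The fitted difference was below 0 in 22 of the 27 and above 0 in 5. Their median was -0.17, against 49.8% of all kept clusters below 0 and a median of 0.0014. By role, differences were below 0 in 4 of 7 early enzymes, 5 of 7 later sterol enzymes and 5 of 5 SREBP factors and regulators. STARD4 and 7 of 7 fatty acid enzymes were below 0 too. Of the latter, FASN (-0.039 ± 0.16), ACLY (-0.13 ± 0.16) and FADS2 (-0.16 ± 0.17) were inside their SE, while SCD, FADS1, ACACA and ELOVL6 were beyond theirs. FASN lay above the vector on both CD arrays. The lowest of the 27 were INSIG1 and HMGCS1, the cytosolic synthase that makes HMG-CoA. Clusters were tested together in limma, with p-values adjusted by Benjamini-Hochberg over all kept clusters and called under 0.05. None of the 27 passed the limma threshold (lowest adjusted p = 0.176), nor did any of the 28946 clusters (0.0%). At an unadjusted p under 0.05, 7 members were lower (25.9%) and 0 were higher, against 6.26% and 8.78% of all clusters.

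INSIG1 stood at 9.60 with TET1-CD, 9.79 with mTET1-CD, 10.28 with TET1-FL and 10.29 with mTET1-FL, against 10.82 with the vector. All 4 plasmid arrays lay below the vector, and the CD pair lay below the FL pair. Its fitted difference was -0.84 ± 0.14 (SE), which is 1.78-fold lower (adjusted p = 0.176), and 0.895% of all kept clusters had a lower one. HMGCS1 stood at 7.03 with TET1-CD, 7.10 with mTET1-CD, 7.59 with TET1-FL and 7.66 with mTET1-FL, against 8.08 with the vector. Here too the groups did not overlap, and the difference was -0.74 ± 0.17, or 1.67-fold (adjusted p = 0.208). FDPS, which makes farnesyl diphosphate, stood at 7.85, 7.85, 7.94 and 7.85 in the same plasmid order, against 8.51 with the vector. It came next to HMGCS1, at -0.64 ± 0.16 (adjusted p = 0.221), and it did not share the step between CD and FL, whose difference was 0.044 ± 0.14. A second FDPS cluster, with lower signal, was also lower, at -0.39.

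Next came SQLE, squalene epoxidase, at -0.51, MSMO1, a methylsterol oxidase of the later pathway, at -0.51, IDI1, the isopentenyl diphosphate isomerase, at -0.51, and SREBF2, which encodes SREBP-2, at -0.43. These 4 and the 3 genes above were the 7 with an unadjusted p under 0.05, and their adjusted p lay between 0.176 and 0.302. STARD4, a carrier of cholesterol between membranes, was at -0.28 and SCD, the stearoyl-CoA desaturase, at -0.26, with a second SCD cluster at -0.50. SREBF1, which encodes SREBP-1, was at -0.20 ± 0.15. SCAP stood at -0.057, INSIG2, the related gene to INSIG1, at -0.029, and MVD, mevalonate diphosphate decarboxylase, at -0.035, each well inside its SE.

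On the other side, 5 sterol enzymes had all 4 plasmid arrays above the vector. TM7SF2, a sterol reductase, stood at 7.00 with TET1-CD, 6.98 with mTET1-CD, 6.79 with TET1-FL and 6.63 with mTET1-FL, against 6.48 with the vector, a difference of 0.37 ± 0.15 (adjusted p = 0.351). MVK, mevalonate kinase, stood at 6.98, 7.17, 6.93 and 6.86 in that order, against 6.69, a difference of 0.30 ± 0.15. NSDHL, which helps remove methyl groups from sterols, stood at 9.05, 9.09, 8.97 and 8.98, against 8.78, a difference of 0.25 ± 0.14. ACAT2, which joins acetyl-CoA units, and PMVK, phosphomevalonate kinase, followed at 0.20 and 0.12. The same pathway thus held genes on both sides of the vector, none of them past the threshold.

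**Figure D2:**
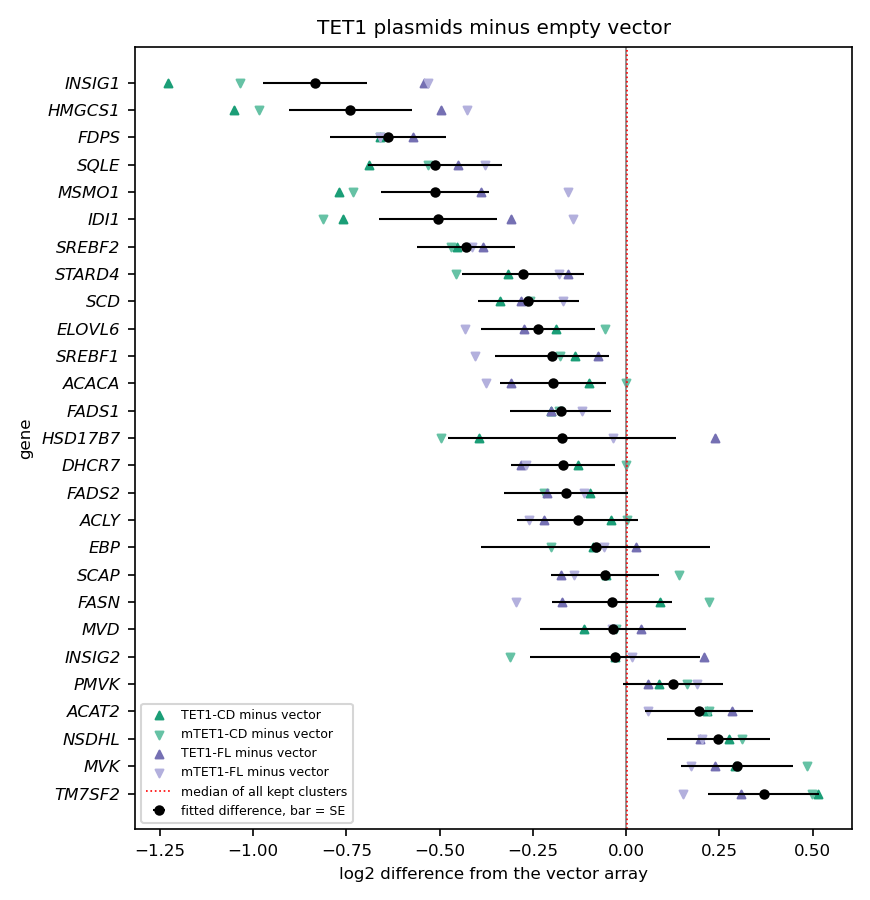
Log2 difference from the vector array (x axis) for each of the 27 genes (y axis), with black points for the fitted mean of the 4 plasmids, bars for its SE, and triangles for single plasmid arrays. INSIG1 (-0.84) and HMGCS1 (-0.74) lie farthest left and TM7SF2 (0.37) farthest right, and the red dotted line at 0.0014 is the median of all kept clusters.

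All 4 plasmid arrays lay below the vector in 13 of 27 members (48.1%, against 27.2% of all kept clusters) and above it in 5 (18.5%, against 27.2%). The 13 held 3 of 7 early enzymes, 2 of 7 later sterol enzymes, 3 of 5 SREBP factors and regulators, STARD4, and 4 of 7 fatty acid enzymes. In 9 members the vector was the highest of the 8 arrays (33.3%, against 15.0%), namely HMGCS1, IDI1, FDPS, MSMO1, INSIG1, SREBF1, SREBF2, STARD4 and FADS1, and in 5 it was the lowest (18.5%, against 13.6%). Since 1 vector array enters every one of these differences, the control clone, which had another treatment and no stated sort, was set beside it.

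Between these single arrays, 14 members were higher with the vector and 12 lower, with a median of 0.083, against 50.8% of all clusters higher. INSIG1 was 1.41 higher in the vector array than in the control clone, SQLE 0.80, IDI1 0.82, MSMO1 0.79, STARD4 0.75, HMGCS1 0.68 and SREBF2 0.61. TM7SF2 stood at -0.73, ACAT2 at -0.63 and FASN at -0.60. At least 2-fold higher with the vector were INSIG1 and HSD17B7 (2 of 27, 7.41%, against 2.09% of all clusters). Against the control clone in place of the vector, a choice made after the data were seen, the 4 plasmids stood higher for INSIG1, at 0.57 (adjusted p = 0.127), and lower for TM7SF2, at -0.36 (adjusted p = 0.265), so that both genes changed sign. All 4 plasmid arrays lay below the control clone in 10 members (37.0%, against 28.9%) and above it in 10 (37.0%, against 31.6%), and the median moved to -0.047. The lower values of INSIG1, IDI1, MSMO1, SQLE, SREBF2 and STARD4 with the plasmids were thus below the vector, while the same plasmid arrays lay above the control clone.

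The FL and CD plasmids were compared with each other to ask whether the construct matters. In 14 members FL was higher and in 13 it was lower, with a median of 0.031, against 0.0031 over all clusters. INSIG1 averaged 10.29 on the FL arrays and 9.69 on the CD arrays, a difference of 0.60 ± 0.13 or 1.51-fold (adjusted p = 0.170), and 6.13% of all clusters had a higher one. IDI1 stood at 8.27 with TET1-FL and 8.43 with mTET1-FL, against 7.82 with TET1-CD and 7.76 with mTET1-CD, a difference of 0.56 ± 0.14. HMGCS1 differed by 0.56 ± 0.15, with the values given above. The pairs of arrays did not overlap in any of these 3 genes, and wild-type and mutant sat close together within each construct.

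MSMO1 stood at 9.88 and 10.12 with TET1-FL and mTET1-FL, against 9.50 and 9.54 with TET1-CD and mTET1-CD. Together with INSIG1, IDI1 and HMGCS1 it was one of 4 members higher with FL at an unadjusted p under 0.05, against 8.86% of all clusters. HSD17B7, a keto-reductase of the later pathway, was 0.55 ± 0.27 higher, but it has a near-identical pseudogene copy, so its value is uncertain. FASN, the fatty acid synthase, went the other way, with 8.91 and 8.78 on the TET1-FL and mTET1-FL arrays against 9.17 and 9.30 on those of TET1-CD and mTET1-CD. Its difference of -0.39 ± 0.14 was the only one lower at an unadjusted p under 0.05, against 4.87% of all clusters. ACACA, the acetyl-CoA carboxylase that commits carbon to fatty acids, stood at 8.58 and 8.52 with TET1-FL and mTET1-FL, against 8.79 and 8.89 with TET1-CD and mTET1-CD (-0.29 ± 0.13). TM7SF2 was also lower, at -0.28 ± 0.13. No member passed after adjustment (lowest adjusted p = 0.170), and no cluster of the whole array did (0.0%).

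Both FL arrays lay above both CD arrays in 10 members (37.0%, against 27.6% of all clusters) and below both in 9 (33.3%, against 25.7%). The second group held 5 genes of the sterol side, MVK, TM7SF2, NSDHL, DHCR7 and SCAP, and 4 fatty acid enzymes, FASN, ACACA, ACLY, the ATP citrate lyase (-0.22 ± 0.15), and ELOVL6, which lengthens fatty acids (-0.23 ± 0.14). Seen over the 5 transfected arrays, 7 members kept the full order of vector above FL above CD without overlap. These were HMGCS1, IDI1, SQLE, MSMO1, INSIG1, SREBF2 and STARD4 (25.9%, against 7.85% of all clusters), and the pattern was noticed after the data were seen. MVK, TM7SF2 and NSDHL had the opposite order (11.1%, against 8.88%). For SREBF2 and STARD4 the gap between FL and CD was small, with FL minus CD at 0.061 ± 0.12 and 0.22 ± 0.15. The plot of levels by array shows the steps.

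**Figure D3:**
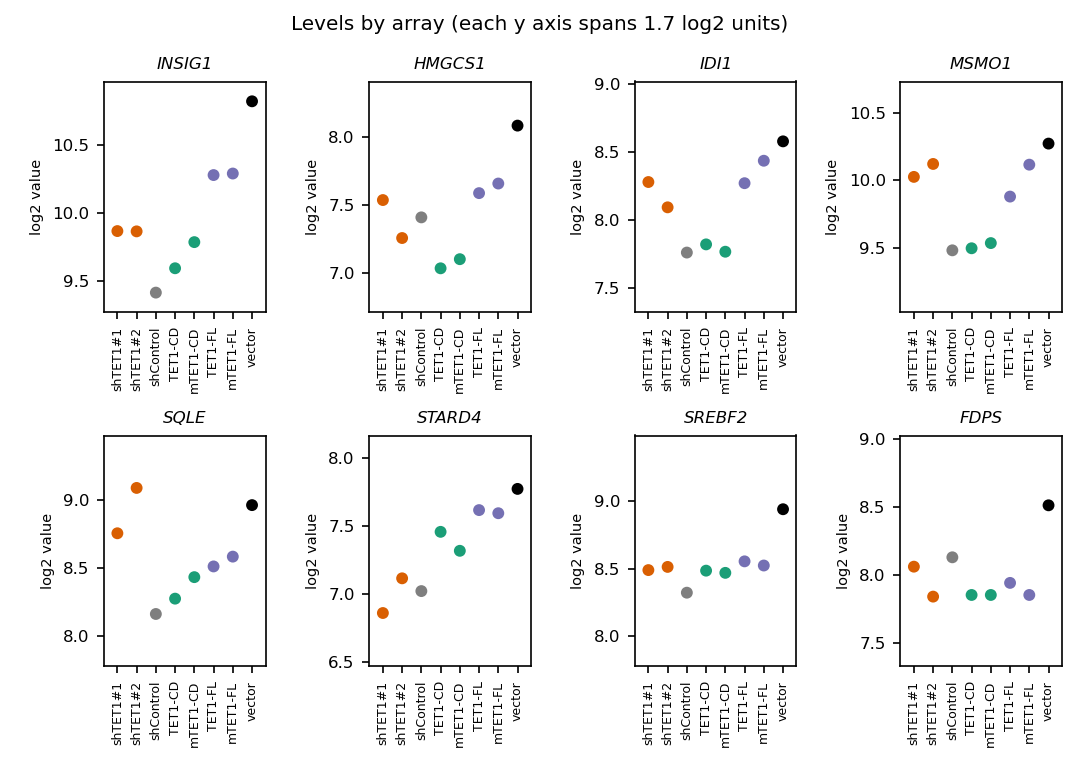
Log2 level of 8 genes on each array (x axis, 1 point per sample), with the y axes of equal span but different position. Orange marks the TET1 shRNA clones, grey the control clone, green the CD plasmids, purple the FL plasmids and black the vector; in INSIG1, HMGCS1, IDI1 and MSMO1 the green points lie below the purple ones and the purple below the black, while FDPS is flat over the plasmids near 7.85.

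Wild-type and catalytically mutant TET1 were compared to ask what depends on enzyme activity. Differences in the members were small: they ran from -0.14 to 0.24 with a median of -0.0038, against 0.0027 over all clusters, with 11 members above 0 and 16 below. MSMO1 was lowest, at -0.14 ± 0.13, with 9.50 in TET1-CD against 9.54 in mTET1-CD and 9.88 in TET1-FL against 10.12 in mTET1-FL. SQLE followed at -0.12 ± 0.16, with 8.28 against 8.43 for CD and 8.51 against 8.58 for FL, and SCAP at -0.11 ± 0.13, with 8.24 against 8.43 and 8.12 against 8.15. Each of these differences was smaller than, or about as large as, its SE.

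The highest was INSIG2, at 0.24 ± 0.20, with 7.36 in TET1-CD against 7.08 in mTET1-CD and 7.60 in TET1-FL against 7.41 in mTET1-FL. HSD17B7 (0.19 ± 0.27) had 6.86 against 6.76 and 7.49 against 7.22, and SREBF1 (0.19 ± 0.14) had 6.88 against 6.84 and 6.95 against 6.61. INSIG1 differed by -0.10 ± 0.13 and HMGCS1 by -0.069 ± 0.15. Wild-type lay above mutant in both constructs in 7 members (25.9%, against 25.0% of all clusters) and below it in both in 10 (37.0%, against 23.0%). No member had an unadjusted p under 0.05, against 1.04% of clusters higher and 0.915% lower. None passed after adjustment, where every member had an adjusted p of 1 and 0.0% of clusters were called. The spread in this fit includes the difference between the shRNA clones, and a small effect could go undetected.

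The shRNA clones were set against the control clone to ask what lowering TET1 does, with the reservation that 1 TET1 clone showed little or no loss of TET1 signal. The value of SQLE was 8.76 for shTET1#1 and 9.09 for the array labelled shTET1#2, against 8.16 for the control clone. It had the highest difference of all members, at 0.76 ± 0.20, or 1.69-fold, and 1.51% of all clusters had a higher difference. MSMO1 stood at 10.03 and 10.12 in the same clones, against 9.49 (0.59 ± 0.16), and INSIG1 at 9.87 on both arrays, against 9.42 (0.45 ± 0.15). Both clones lay above the control in these genes, and IDI1 was next at 0.43 ± 0.17. HMGCS1 did not share this, at 7.54 and 7.26 against 7.41.

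FADS1, the fatty acid delta-5 desaturase, was lowest, with 7.33 for shTET1#1 and 7.26 for the array labelled shTET1#2, against 7.69 for the control clone (-0.39 ± 0.15). TM7SF2 stood at 6.97 and 6.80 against 7.21 (-0.33 ± 0.16), and FADS2, the neighbouring delta-6 desaturase gene, at 7.23 and 6.99 against 7.41 (-0.30 ± 0.18, and -0.18 without the array labelled shTET1#2). By role, differences were below 0 in 6 of 7 fatty acid enzymes, 4 of 7 early enzymes, 2 of 7 later sterol enzymes and 1 of 5 SREBP factors and regulators, against 52.2% of all kept clusters. Many of these differences were inside their SE, such as ELOVL6 (-0.075 ± 0.17) and ACLY (-0.13 ± 0.18), and no split between roles was tested. SCD stood at 0.25, although a second SCD cluster of lower signal stood at -0.52.

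Over all 27 members 13 were above 0 and 14 below, with a median of -0.012, close to the -0.010 of all clusters. Both clones lay above the control in 9 members (33.3%, against 29.4%) and below it in 9 (33.3%, against 33.1%). The unadjusted p was under 0.05 for SQLE, MSMO1 and INSIG1 on the higher side (3 members, against 3.36% of all clusters) and for FADS1 on the lower (1 member, against 4.56%). No member passed after adjustment (lowest limma adjusted p = 0.540), and 0.0% of clusters did. The control clone was the lowest of all arrays for INSIG1, SQLE, MSMO1, IDI1 and SREBF2. Against the empty vector in its place, the 2 TET1 shRNA clones stood at -0.96 for INSIG1, -0.20 for MSMO1 and -0.040 for SQLE, so the direction turned.

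**Figure D4:**
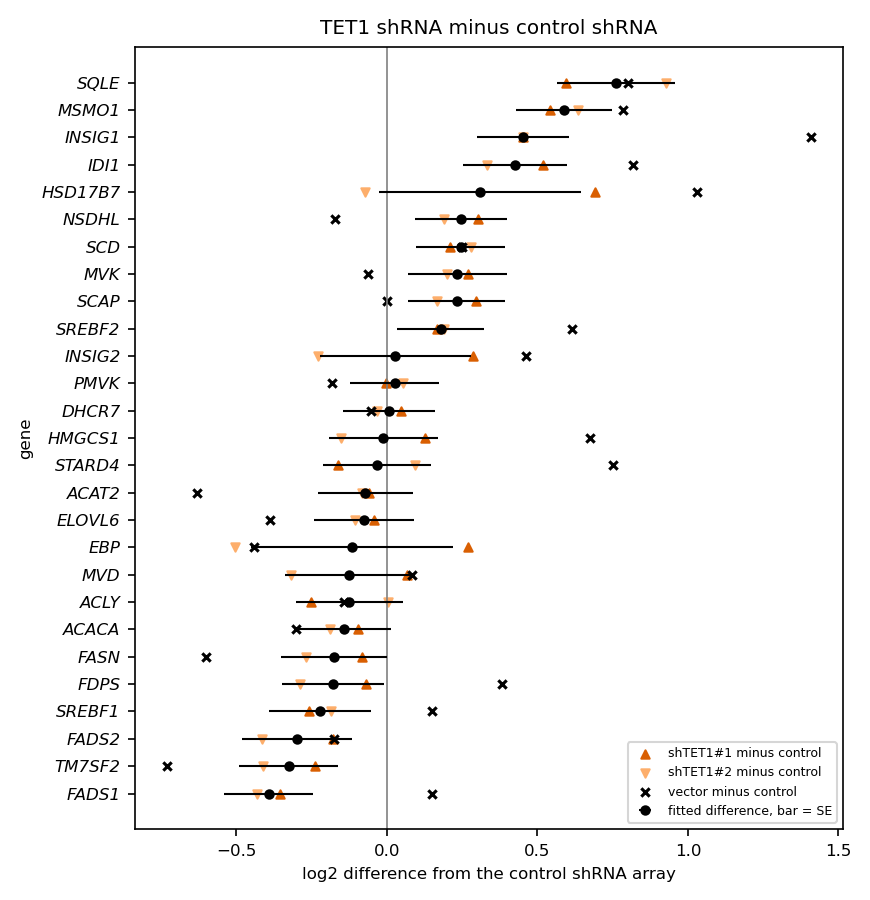
Log2 difference from the control shRNA array (x axis) for each of the 27 genes (y axis), with black points for the fitted mean of the 2 TET1 shRNA clones, bars for its SE, triangles for the single clones and crosses for the vector array. SQLE (0.76) lies highest and FADS1 (-0.39) lowest, and the vector cross of INSIG1 lies farther right, at 1.41, than both its clones.

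The 3 clone arrays were also set against the 5 transfected arrays, which differ in delivery, culture and sorting at once, so these cannot be told apart. Several genes of fatty acid synthesis had higher values in the clones, short of the threshold. ELOVL6 stood at 8.24 in shTET1#1, 8.18 in the array labelled shTET1#2 and 8.28 in the control clone, against 7.71, 7.84, 7.62 and 7.46 with the plasmids (in the order TET1-CD, mTET1-CD, TET1-FL, mTET1-FL) and 7.90 with the vector. FASN stood at 9.59, 9.41 and 9.68 in the clones, against 9.17, 9.30, 8.91 and 8.78 with the plasmids and 9.08 with the vector. Neither gene's groups overlapped, and the differences were 0.53 ± 0.10 and 0.51 ± 0.11 (adjusted p = 0.0543 and 0.062). EBP, a sterol isomerase, came next at 0.43 ± 0.20, but it stood at 8.49 in shTET1#1, 7.72 in the array labelled shTET1#2 and 8.22 in the control clone, against 7.69, 7.58, 7.81 and 7.72 with the plasmids and 7.78 with the vector, so its groups overlapped. Without shTET1#1 its difference was 0.25. ACAT2 (0.43 ± 0.094, adjusted p = 0.0695) and ACACA (0.36 ± 0.093, adjusted p = 0.0899) did not overlap.

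HSD17B7 was the lowest in the clones, at 6.91, 6.15 and 6.22, against 6.86, 6.76, 7.49 and 7.22 with the plasmids and 7.25 with the vector (-0.69 ± 0.20), and its groups overlapped. STARD4 stood at 6.86 in shTET1#1, 7.11 in the array labelled shTET1#2 and 7.02 in the control clone, against 7.46, 7.32, 7.62 and 7.59 with the plasmids and 7.77 with the vector (-0.55 ± 0.11, adjusted p = 0.056). It was the only member with all clones below all transfected arrays. INSIG1 was lower at -0.44 ± 0.091, its clones overlapping the CD arrays, and stood at -0.27 without the vector (adjusted p = 0.152) and -0.29 without the control clone (adjusted p = 0.202). FADS1 and INSIG2 were lower too, at -0.27 and -0.42, and HMGCS1 stood at -0.092 ± 0.11.

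Clones lay above the transfected arrays without overlap in 5 members, ELOVL6, FASN, ACACA, ACAT2 and DHCR7, the last reductase of cholesterol synthesis, at 0.19 ± 0.090 (18.5%, against 7.67% of all clusters). They lay below in 1 (3.70%, against 8.18%). An unadjusted p under 0.05 was reached by 4 members on the higher side and 5 on the lower, against 11.5% and 15.1% of clusters. No member passed the adjusted threshold (lowest adjusted p = 0.0543), although up to 6 did under other settings, while 1.76% of clusters were called higher and 3.65% lower. Beside the shared prior, the fit's spread rests on how far the TET1 shRNA clones lay apart and on the mismatch of the wild-type effect in CD and in FL. It leaves out differences between the control and TET1 shRNA clones and between vector and plasmids. Leaving out any 1 of the 4 plasmid arrays left 0 clusters called. Markers of the HEK293T line with a cluster were above the array median on all arrays (5 of 5 found among 9). Their median ran from 7.26 to 7.52 in the transfected cells. In the clones it was 7.18 for shTET1#1, 6.95 for the array labelled shTET1#2 and 6.51 for the control clone. The marker EYA1 stood at 6.31 in the control clone, against 7.66 to 8.65 on the other arrays. Whether these differences bear on the lipid genes was not tested.

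**Figure D5:**
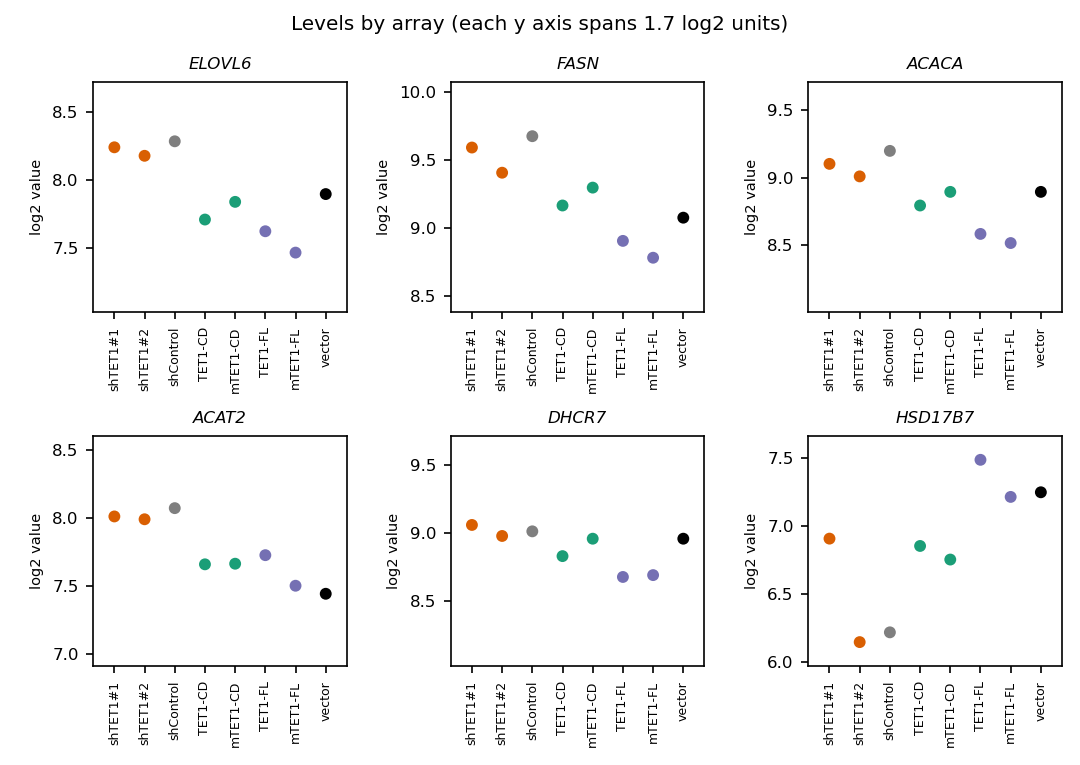
Log2 level of 6 genes on each array (x axis, 1 point per sample), coloured as in the plot of sterol levels and with y axes of equal span. In ELOVL6, FASN, ACACA and ACAT2 all clone points (orange and grey) lie above the transfected points (green, purple and black), in DHCR7 by a small margin, and in HSD17B7 the points overlap.

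Other genes of the pathway were read beside the members, as far as the annotation named them. Of the wider lists, 4 of 10 sterol pathway genes, 4 of 11 uptake and transport genes, 2 of 7 genes of LXR-driven export, 4 of 10 genes of SREBP processing and 15 of 24 fatty acid and related genes were kept. None passed in the comparisons of TET1 plasmids with vector, of FL with CD, of wild-type with mutant or of shRNA with control. With the plasmids against the vector the medians were 0.19, -0.30, 0.11, -0.038 and -0.20 in that order. For FL minus CD they were -0.27, 0.14, 0.030, 0.11 and -0.068, and all 4 sterol pathway genes were lower with FL. VLDLR, a lipoprotein receptor, stood at 6.07, 6.07, 6.30 and 6.30 with the plasmids (in the order TET1-CD, mTET1-CD, TET1-FL, mTET1-FL), against 6.82 with the vector (-0.63, adjusted p = 0.356), the order that 7 of the 27 members kept. GRAMD1A, a cholesterol carrier of membrane contacts, stood at -0.50 and the desaturase gene SCD5 at -0.59 (adjusted p = 0.277 and 0.224). MYLIP, the LXR-induced ligase that degrades lipoprotein receptors, was at 0.37 (adjusted p = 0.330) and DHDDS, which makes dolichol precursors, at 0.37. In the clones against transfected cells, HACD3, a dehydratase of fatty acid elongation, was the 1 gene of these lists that passed, at 11.81 for shTET1#1, 11.77 for the array labelled shTET1#2 and 11.68 for the control clone, against 11.17 to 11.22 with the plasmids and 11.41 with the vector (0.52, adjusted p = 0.0451).

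Markers of other cell types were mixed. Hepatocyte genes, of interest because liver is a main site of sterol synthesis, had 4 of 7 symbols with a cluster. ALB and APOB lay below the array median on every array, while APOA1 (6.02 to 6.48) and TTR (5.87 to 6.21) lay above it on all 8. Adipocyte, adrenal, fibroblast, blood and endothelial markers had 10 clusters, of which PLIN1 alone lay above the array median, on all 8 arrays (6.41 to 6.84), a range near that of the HEK293T marker PAX2 (6.40 to 6.62). Probes differ in brightness, so levels of different genes are not compared further, and the part of these markers in the results was not tested. INSIG1 and HMGCS1 were above the array median of 5.47 to 5.55 on every array. All members had passed a filter on that median, so this level does not check the list label.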

How the data were processed

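RNA of 8 HEK293T samples was read on Affymetrix arrays from 100 ng of total RNA, per the labels. The deposited log2 values were made by the authors with Affymetrix Expression Console 1.3.1 and RMA, per the submitters' processing notes; the genome build is not given in the sources used here. Depth has no meaning for arrays, and their number limits precision. Clusters above their own array's median on at least 2 arrays were kept. All 8 arrays entered 1 fit of limma 3.58.1 (lmFit and eBayes, R 4.3.3). It held a mean for each of control shRNA, TET1 shRNA, vector, wild-type and mutant plus a construct term. The fit left 2 residual degrees of freedom and a prior of 2.89. The method was run on simulated data with independent noise on each array. Those data held no added difference between single cultures, so they do not test the reliance on 1 control and 1 vector array. Described with values on every array are the 3 highest and 3 lowest members of each comparison, INSIG1 and HMGCS1. Members and lists were chosen with earlier results of these data known. Alternatives covered the filter, scaling, normalization, prior, clusters per symbol, controls and arrays left out.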

Additional observations from a re-analysis of the deposited data

How the results depend on the processing

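With 8 arrays and no replicate cultures, small differences may go undetected. The labels pair no TET1 shRNA clone with a control and no plasmid array with the vector, so no paired analysis was made there. The construct term already sets wild-type beside mutant within CD and FL. Of the summary values, 143 were labelled the same under an alternative and 20 moved. That label allows for some change. It was given to a members' median of 0.068 for TET1 shRNA minus control without the array labelled shTET1#2, against -0.012. It was also given to 2104 clusters called for clones minus transfected cells under cyclic loess, against 1566. Of the single-gene values, 387 had that label, 16 passed the threshold newly and 9 turned sign. Some alternatives, namely the filter, the trended prior and 1 cluster per symbol, cannot alter a gene's fitted difference. Only adjusted p-values and calls could move there, so these counts overstate how much was put to the test. For TET1 shRNA minus control, HMGCS1 turned to 0.021 under cyclic loess, and ran from -0.15 without shTET1#1 to 0.13 without the array labelled shTET1#2. Set against the vector, TM7SF2 stood at 0.40, INSIG1 at -0.96, MSMO1 at -0.20 and SQLE at -0.040. With 1 cluster per symbol, 5 clusters were called, against 0. For TET1 plasmids minus vector, 1 cluster was called after centring each array, and with the control clone, chosen after seeing the data, INSIG1 stood at 0.57, TM7SF2 at -0.36 and the members' median at -0.047. For FL minus CD, the members' median was 0.0056 after centring and 0.062 without the mutant arrays. For clones minus transfected cells, clusters called numbered 135 with no filter and 2550 with a trended prior, against 1566, and members called numbered 2 under loess, 6 with 1 cluster per symbol and 4 with the trended prior, against 0. Leaving out 1 array at a time gave 0 to 2979 clusters and 0 to 4 members called; clusters numbered 498 without the control clone, 2824 without shTET1#1, 2979 without the array labelled shTET1#2 and 0 without any 1 plasmid array. HMGCS1 ran from -0.16 without shTET1#1 to 0.056 without the vector. Fewer clusters enter the adjustment with 1 cluster per symbol. Without any 1 plasmid array, the spread within each cluster, before the shared prior, rests on the gap between the TET1 shRNA clones alone. Without 1 of these clones, it rests on the mismatch of the wild-type effect in CD and in FL alone. The part of this in the numbers called, and the cause of the other changes, were not tested.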
